A study of Gallus gallus with 30 samples.

Results

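TXN, which encodes thioredoxin, was followed through 10 stages of growth and ovulation in the granulosa layer of chicken follicles. Its row was taken as the identifier ENSGALG00000015704 on chromosome Z, which the study's supplementary gene table pairs with the symbol TXN, and it is 1 gene of the 23910 in the deposited expression table. The layers came from Luhua hens, a chicken breed, at 31 weeks of age, with no treatment or genetic change in any group. The stages were small white (SWF), large white (LWF), small yellow (SYF) and large yellow (LYF) follicles, which are called prehierarchical, then the 5 preovulatory ones, numbered down from F5 to F1, the next to ovulate, and the postovulatory follicle (POF) that remains after ovulation. Each stage had 3 libraries that the submitters call biological replicates, 30 in all, made from total RNA depleted of rRNA.

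Thioredoxin is a small protein that reduces disulfide bonds in other proteins through a pair of cysteines in its active site, and thioredoxin reductase returns it to the reduced state with electrons from NADPH. It passes electrons to peroxiredoxins, which remove peroxides, and to ribonucleotide reductase, which makes the building blocks of DNA. In the hen ovary the granulosa cells lie between the oocyte with its yolk and the theca, and they turn from dividing cells of small follicles into progesterone-producing cells of the preovulatory follicles.

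LWF and SYF carry uncertain names, because in 6 libraries the title says one stage and the description the other. Columns are named as in the descriptions, so these stages are given as LWF (titled SYF) and SYF (titled LWF), and which label is right cannot be told apart from the table. Levels are in FPKM, fragments scaled to transcript length and to the mapped total of the library. The relative depth of each library was read from its most frequent FPKM value in a fixed low window, which limits how far it can range. It ran from 1 to 1.54, and the summed FPKM ran from 471009 to 642207. Mitochondrially encoded genes took 14.1% to 49.5% of the summed FPKM, with the highest share in LYF replicate 1. The upper quartile of FPKM over the genes kept ran from 14 in F1 replicate 3 to 24.3 in SWF replicate 3. ZP3, an egg coat protein gene of avian granulosa cells, had 341.1 to 90650 FPKM in the 30 libraries, and it was the only granulosa marker that could be matched to a row. Markers of theca, endothelium, immune cells, erythrocytes and oocyte could not be matched to any row, so the makeup of the layers was not tested. A noncoding RNA gene overlaps TXN in the RefSeq annotation, and whether they share reads was not tested. In bulk tissue, fewer cells of a type and less RNA per cell cannot be told apart.

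TXN was an abundant transcript in every library, which largely follows from how it was chosen. The study's gene table lists genes that were among the most highly expressed at every stage of these same libraries. Its abundance is therefore a description and no separate result. It had 405.2 FPKM in its lowest library, POF replicate 3, a median of 965.8 FPKM, and 1522 FPKM in its highest library, F5 replicate 2. Its rank by FPKM lay between 27 and 89 among all genes, with a median of 41, and between 15 and 73 among the nuclear genes. It supplied between 0.0782% and 0.305% of the summed FPKM of a library.

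In the smallest follicles TXN was at the lower end of its range. The SWF libraries had 606.4, 692.3 and 656 FPKM, with a mean of 651.6 ± 43.1 FPKM (SD, n = 3). The LWF (titled SYF) libraries had 645.9, 802.2 and 409 FPKM, with a mean of 619.1 ± 198 FPKM (SD, n = 3). The SYF (titled LWF) libraries had 573.2, 582.3 and 991.9 FPKM, with a mean of 715.8 ± 239 FPKM (SD, n = 3). The libraries of these 3 stages overlapped, and replicate 3 lay apart from the other 2 in LWF (titled SYF), where it was low, and in SYF (titled LWF), where it was high.

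At LYF, the last prehierarchical stage, and at F5, the first preovulatory stage, all 6 libraries were above every library of the 3 smaller stages. The LYF libraries had 1285, 1421 and 1167 FPKM, a mean of 1291 ± 127 FPKM (SD, n = 3). The F5 libraries had 1297, 1522 and 1361 FPKM, a mean of 1394 ± 116 FPKM (SD, n = 3). These 2 stages overlapped, and their coefficients of variation were 9.84% in LYF and 8.31% in F5.

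The other preovulatory stages spread over a wider range. The F4 libraries had 1221, 1023 and 874.1 FPKM, a mean of 1039 ± 174 FPKM (SD, n = 3), and the F3 libraries had 1507, 1213 and 1327 FPKM, a mean of 1349 ± 148 FPKM (SD, n = 3). The F2 libraries had 588.4, 1155 and 792 FPKM, a mean of 845.2 ± 287 FPKM (SD, n = 3). The F1 libraries had 939.7, 912.1 and 1018 FPKM, a mean of 956.6 ± 54.9 FPKM (SD, n = 3). F1 was thus the tightest of the 10 stages, with a coefficient of variation of 5.74%, whereas F2 replicate 1 was below all SWF libraries and F2 replicate 2 was just below the lowest LYF library.

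After ovulation the 3 libraries disagreed most. The POF libraries had 823.1, 1270 and 405.2 FPKM, a mean of 832.7 ± 432 FPKM (SD, n = 3), and the highest was 3.13 times the lowest. They included the lowest TXN value of the whole series and a value within the range of LYF.

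**Figure D1:**
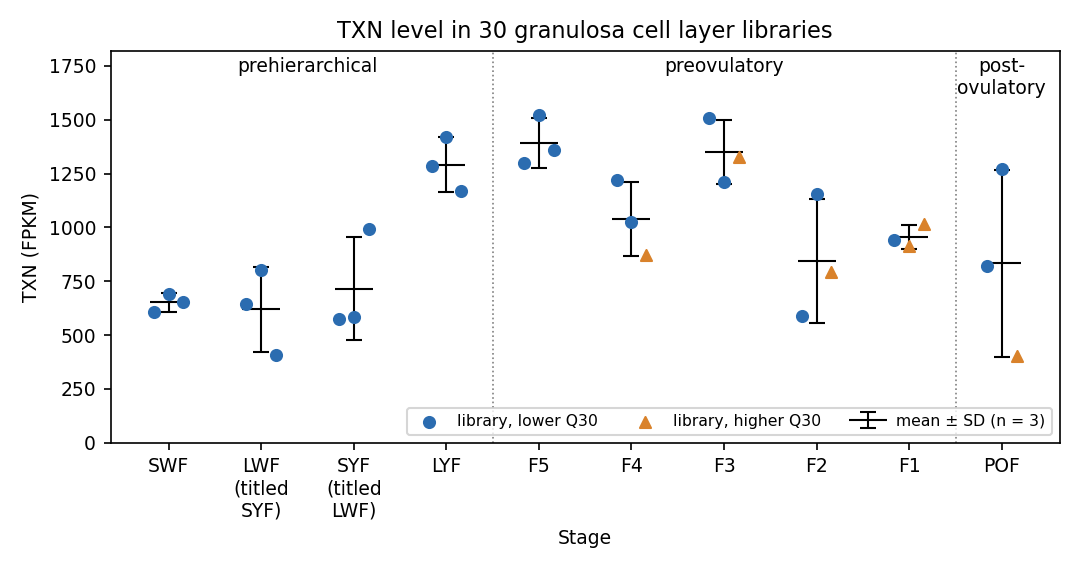
TXN level in FPKM (y axis) in each of the 30 libraries, by stage (x axis). Points are libraries, and bars are the mean and SD of 3 libraries. Triangles mark the 6 libraries with higher Q30, the share of bases with a low error rate. The LYF, F5 and F3 libraries sit between 1167 and 1522 FPKM, above all SWF, LWF and SYF libraries, and the POF libraries spread between 405.2 and 1270 FPKM.

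Ordered by their means, the stages ran F5, F3, LYF, F4, F1, F2, POF, SYF (titled LWF), SWF and LWF (titled SYF). No neighbours in this order differed beyond their spread. The libraries overlapped in all 9 neighbouring pairs, the ratios of neighbouring means were 1.02 to 1.24, and the adjusted p-values were 0.727 to 0.945 with limma. The order is therefore resolved only between stages that are farther apart.

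The clearest difference was between SWF and the stages around the entry into the hierarchy. A gene was called when its limma p, adjusted by the Benjamini-Hochberg method over 15197 genes, was under 0.05 and its fold of FPKM + 1 was over 1.5, and all log2 differences below are on the log2(FPKM + 1) scale. TXN rose to 1291 ± 127 FPKM in LYF, against 651.6 ± 43.1 FPKM in SWF (SD, n = 3 each), a log2 difference of 0.98 (SE 0.247, 95% interval 0.39 to 1.58, limma adjusted p = 0.0297). In this comparison 3.76% of genes were called higher in LYF, and 27.7% in either direction. The call was lost without SWF replicate 1, 2 or 3 or LYF replicate 2 (adjusted p up to 0.109), while the difference stayed between 0.91 and 1.05. Without LYF replicate 1, the library with 49.5% mitochondrial FPKM, the difference was 0.98 (adjusted p = 0.0323).

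The rise over SWF was as large at F5 and F3 and smaller at F4. F5 was above SWF by 1.09 on the log2 scale (SE 0.182, limma adjusted p = 0.00729), a ratio of means of 2.14, where 6.99% of genes were called higher in F5. F3 was above SWF by 1.05 (SE 0.191, limma adjusted p = 0.00626), a ratio of 2.07, where 7.24% of genes were called higher in F3. F4 was above SWF by 0.66 (SE 0.201, limma adjusted p = 0.0415), a ratio of 1.6, where 7.44% of genes were called higher in F4. The F5 and F3 calls held without any 1 library of their pair (adjusted p up to 0.0398 for F5 and 0.0303 for F3). The F4 call was lost in 5 of 6 such fits, without SWF replicate 1, 2 or 3 or F4 replicate 1 or 2 (adjusted p up to 0.117, difference 0.54 to 0.78), and also without the filter and with all 30 libraries in 1 fit. No library of LYF, F5, F4 or F3 overlapped with SWF, which was also the case for 48.7% of genes in LYF, 51.3% in F5, 54% in F4 and 59% in F3. TXN went the other way from most genes here, where the median log2 difference of all genes was -0.41 in LYF, -0.32 in F5, -0.34 in F4 and -0.49 in F3, each minus SWF. Only 4.44% of genes in LYF and 5.22% in F5 had a larger log2 difference from SWF than TXN.

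F5 and F3 were also above LWF (titled SYF). F5 exceeded it by 1.22 (SE 0.282, limma adjusted p = 0.0381), where 5.32% of genes were called higher in F5. F3 exceeded it by 1.17 (SE 0.288, limma adjusted p = 0.0248), where 6.88% of genes were called higher in F3. Neither call was firm. That of F5 was lost without any 1 of its 6 libraries (adjusted p 0.0589 to 0.10, difference 0.95 to 1.43). That of F3 was lost without LWF replicate 1 or 3 or F3 replicate 1 or 3 (adjusted p up to 0.0758, difference 0.90 to 1.38). It was also lost with a term for the libraries with higher Q30. LYF was 1.11 above it (SE 0.314, limma adjusted p = 0.0786), a difference that did not pass after adjustment although the libraries did not overlap, where 1.86% of genes were called higher in LYF and 38% did not overlap. Against SYF (titled LWF), LYF was higher by 0.90 (SE 0.353, 95% interval 0.03 to 1.76, limma adjusted p = 0.408), again without overlap, where 0% of genes were called higher in LYF and 19.3% did not overlap.

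Because LWF and SYF carry exchanged names, LYF was also set against both together, a contrast chosen after the values were seen. TXN averaged 1291 FPKM in the 3 LYF libraries and 667.4 FPKM in the 6 LWF and SYF libraries. The log2 difference was 1 (SE 0.294, 95% interval 0.33 to 1.67, limma adjusted p = 0.0721), which was not called, and 2.28% of genes had a larger one. In that contrast 0.651% of genes were called higher in LYF. The adjusted p was 0.0356 without SYF replicate 3, and this library was the highest of those 6.

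At F1 the difference from SWF was smaller. TXN had 956.6 ± 54.9 FPKM in F1 and 651.6 ± 43.1 FPKM in SWF (SD, n = 3 each), with no overlap, as for 65.2% of genes, and a ratio of means of 1.47. The log2 difference of 0.55 (SE 0.152, 95% interval 0.19 to 0.92, limma adjusted p = 0.0207) passed on p and missed the fold of 1.5, so TXN was not called. With a term for the libraries with higher Q30 the limma adjusted p was 0.0721, and with all 30 libraries in 1 fit it was 0.183. Neither passed on p. After quantile normalization of the pair the difference was -0.02 (limma adjusted p = 0.936). In this pair 8.4% of genes were called higher in F1 and 52.9% in either direction, and the median log2 difference of all genes was -0.60.

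Over whole phases the difference was smaller, and it is not a step at the phase boundary. The phases set LYF with SWF, LWF and SYF, and F5 minus LYF was 0.11 (limma adjusted p = 0.977). The 15 preovulatory libraries had a lowest TXN value of 588.4, a median of 1155 and a highest of 1522 FPKM, and the 12 prehierarchical libraries had 409, 674.2 and 1421 FPKM. The phases overlapped widely, and the 3 highest prehierarchical libraries were those of LYF. The log2 difference between preovulatory and prehierarchical stages was 0.50 (SE 0.163, 95% interval 0.16 to 0.84, limma adjusted p = 0.0118), which passed on p and not on fold. In this contrast 7.77% of genes were called higher, and the median of all genes was -0.28. After quantile normalization of all 30 libraries the difference was 0.13 (SE 0.14, limma adjusted p = 0.472), which did not pass on p.

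From LYF to F1 no pair of stages was called for TXN, and in many of these pairs hardly any gene was called. The share of all genes called in either direction was 0% for F5 and F4 against LYF and for F3 against F5. It was 0.105% for F3 against LYF and 0.0987% for F1 against F3. The largest shares were 16.1% for F1 against LYF, 19% for F1 against F4 and 24.8% for F1 against F5. Of the 15 pairs among LYF, F5, F4, F3, F2 and F1, 7 did not overlap (23.4% of genes in these pairs did not) and 2 had an unadjusted limma p under 0.05. These were F1 against F5, with 956.6 and 1394 FPKM, and F1 against F3, with 956.6 and 1349 FPKM. F1 minus F5 was -0.54 (SE 0.171, 95% interval -0.97 to -0.11, limma adjusted p = 0.0715), where 19.4% of genes were called lower in F1. F1 minus F3 was -0.49 (SE 0.179, limma adjusted p = 0.259), and only 0.0329% of genes were called lower in F1 in that pair. A straight line through F5, F4, F3, F2 and F1 sloped by -0.14 on the log2 scale per stage (SE 0.0623, 95% interval -0.28 to -0.01, limma adjusted p = 0.0826), which did not pass, while 32% of genes passed with a negative slope. Under upper quartile scaling, F1 minus F5 was -0.17 (adjusted p = 0.624) and the slope was -0.04 (adjusted p = 0.662).

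No pair of POF with another stage was called for TXN on its own 6 libraries, but POF was called lower than F5 with all 30 libraries in 1 fit. TXN had 832.7 ± 432 FPKM in POF and 956.6 ± 54.9 FPKM in F1 (SD, n = 3 each), with F1 lying inside the range of POF. POF minus F1 was -0.35 (SE 0.557, 95% interval -1.75 to 1.06, limma adjusted p = 0.666), where 15.7% of genes were called in either direction. It was -0.73 without POF replicate 2 and 0.10 without POF replicate 3, so the sign rested on 1 library. POF minus SWF was 0.21 (SE 0.492, 95% interval -0.98 to 1.39, limma adjusted p = 0.784), with 16.4% of genes called in either direction. It turned to -0.17 without POF replicate 2 and was 0.65 without POF replicate 3. Against all 15 preovulatory libraries, POF differed by -0.53 (SE 0.267, 95% interval -1.08 to 0.02, limma adjusted p = 0.112), where 9.39% of genes were called lower. That value was -0.91 and was called without POF replicate 2 (adjusted p = 0.0124), and it was -0.08 without POF replicate 3.

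Over all 45 pairs of stages TXN was called in 6, each time higher in the later stage, and over all genes and pairs 13.7% of tests were called. SWF was the earlier stage in 4 of them and LWF (titled SYF) in 2, and no pair with SYF (titled LWF) or POF was called. In the pairs of SYF (titled LWF) with SWF, LWF, LYF, F5 and F4, 0% of all genes were called. The missing calls there are therefore not particular to TXN. In its pairs with F3, F2 and F1 the share was 13.4%, 15.5% and 33.4%, and in the pairs with POF it was 6.38% to 16.4%. For comparison, a gene was called in a median of 5 pairs, 42.4% of genes were called in more pairs than TXN, and 19.7% in none. Unadjusted p-values were under 0.05 in 15 pairs, 0 of them with POF. TXN did not overlap in 21 pairs (35.6% of genes and pairs did not), against a median of 16 over all genes, and 26.1% of genes had more such pairs. Between the 3 small stages and LYF to F1 lay 18 pairs, and TXN was higher in the later stage in all 18. In 13 of them the libraries did not overlap (46.4% of genes in these pairs did not). This grouping is not the study's division into phases. It parts the 3 lowest stage means from higher ones, so all 18 follows from the order above and adds no separate result. After quantile normalization of all 30 libraries together, F2 minus SWF was -0.19 and F1 minus SWF was -0.02. The pairs share stages and libraries, so they are not independent of each other, and 3 libraries against 3 cannot give an exact two-sided permutation p under 0.1 for a single gene.

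**Figure D2:**
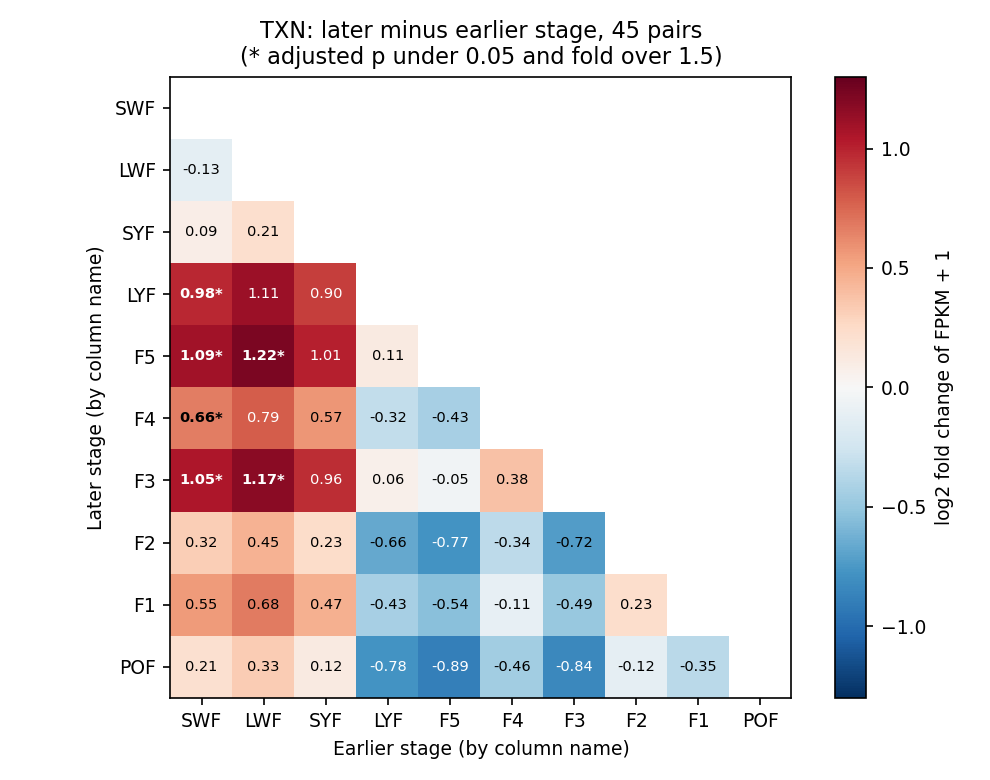
Log2 difference of TXN (FPKM + 1) for each later stage (rows) minus each earlier stage (columns), with stages named by column. Asterisks mark the 6 called pairs, which fall in the SWF and LWF columns, with values of 0.66 to 1.22, and the rows F2 and POF hold mostly small or negative values.

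Fitted as a curve of degree 2 over the rank of 8 stages, leaving out the stages with exchanged names, TXN rose and then fell, with a limma F of 4.07 and an adjusted p of 0.0451 over 24 libraries. The curve took up an R-squared of 0.324 of the variation, under the 0.7 set here as a minimum, since the sources used here give none. In that fit 66.7% of genes passed on p and 6.56% passed on both, and 60.4% of genes had a higher R-squared than TXN. The fit without POF replicate 3 had an adjusted p of 0.171 and an R-squared of 0.224, and 15 of the 24 fits that left out 1 library no longer passed. With all 30 libraries the R-squared was 0.408 by the stage order of the descriptions (adjusted p = 0.00272) and 0.363 by that of the titles (adjusted p = 0.00631), and without POF it was 0.38 over 21 libraries (adjusted p = 0.0324).

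The size of the TXN course depended on how the libraries were put on a common scale. With FPKM as deposited, LYF was 0.98, F5 1.09, F3 1.05 and F1 0.55 above SWF on the log2 scale. Divided by the upper quartile of each library, the values were 1.47 in LYF, 1.45 in F5, 1.62 in F3 and 1.28 in F1. After quantile normalization of all 30 libraries together they were 0.34 in LYF, 0.57 in F5, 0.38 in F3 and -0.02 in F1, so that F1 lay near SWF. With the 6 libraries of each pair normalized by themselves, as in the tests, LYF minus SWF was 0.36 (adjusted p = 0.347), and limma called 0 of the 45 pairs, with an unadjusted p under 0.05 in 4. The share of all genes called after this normalization was not computed. Whether the loss of calls is particular to TXN was therefore not tested. Without mitochondrially encoded genes and ZP3 in the total, the values were 1.08 in LYF, 1.11 in F5, 1.06 in F3 and 0.61 in F1. LYF, F5 and F3 were the 3 highest stages under all 4 scalings, while the place of SWF moved between 5 and 10.

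**Figure D3:**
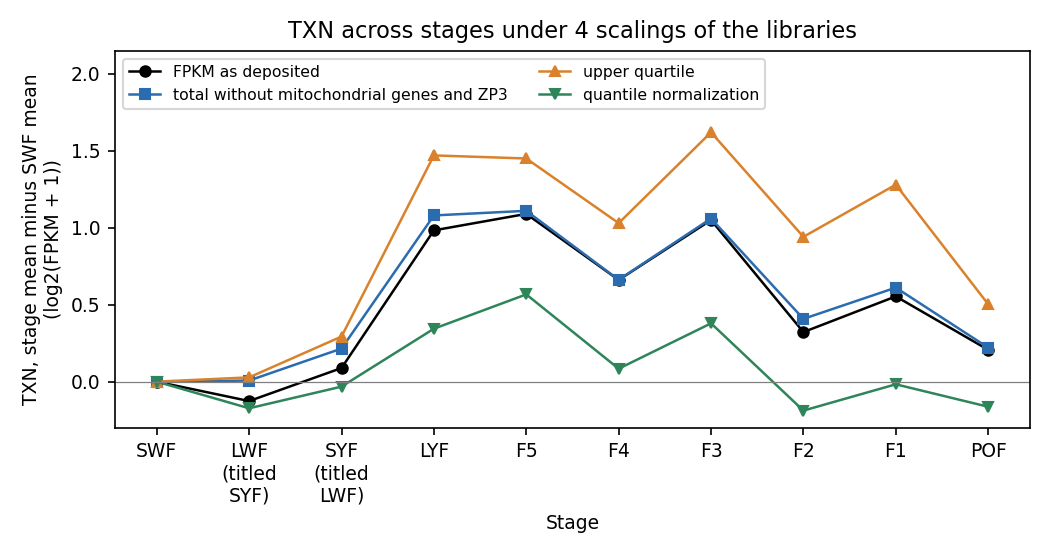
TXN by stage (x axis) as the stage mean minus the SWF mean on the log2(FPKM + 1) scale (y axis), under 4 scalings of the libraries. The lines rise at LYF in all 4, to between 0.34 and 1.47, and F1 lies between -0.02 and 1.28.

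Ratios within a library do not depend on its total, so TXN was divided by each of the 18 other nuclear genes that the study's table names. These genes are among the most abundant in the layers and were picked by the study from these same libraries. How often such ratios fail to overlap was not computed over all genes, so the counts below have no baseline. In FPKM itself, 48.7% of genes did not overlap between LYF and SWF, and 51.3% between F5 and SWF. In LYF the ratio was above that in SWF for 14 of the 18, with a median log2 difference of 0.70, without overlap for 7 upwards and for 2 downwards. The largest were the ratios to GAPDH, a glycolysis enzyme gene (3.03), ACTB, which encodes beta-actin (2.01), and EEF1A, an elongation factor gene (1.53). These genes were themselves lower in LYF than in SWF, GAPDH by a log2 difference of -2.04 (limma adjusted p = 0.016, called). The difference was -1.02 for ACTB and -0.54 for EEF1A, neither called. Their ratios therefore hold these differences as well as that of TXN. The 2 downward ratios were those to SPARC, a gene of a matrix-associated glycoprotein (-0.48), and ZP3 (-2.26), both of which differed more between LYF and SWF than TXN did. In F5 the ratio was above that in SWF for 14 of the 18, with a median of 0.60 and 8 upwards without overlap. In F3 it was above that in SWF for 12 of the 18, with a smaller median of 0.22. In F1 the median difference from SWF was 0.28, and in POF the median difference from SWF was -0.03 with 17 of the 18 ratios overlapping.

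Of the antioxidant and redox genes listed for comparison, only FTH1 could be matched to a row. Its product, ferritin heavy chain, stores iron. None of 20 other members of the thioredoxin system list, such as thioredoxin reductases and peroxiredoxins, and none of 18 glutathione genes or 16 genes of endoplasmic reticulum thioredoxin-fold proteins could be matched, so whether partners of TXN moved with it was not tested. FTH1 had its highest stage mean in POF and its lowest in LWF (titled SYF), and its stage means had a Pearson r of -0.22 with those of TXN over 10 stages. In POF replicate 1 FTH1 stood at 4647 FPKM, while TXN had 823.1 FPKM in that library. FTH1 had 1374 FPKM in POF replicate 2 and 631 FPKM in POF replicate 3, so its high POF mean rested on replicate 1.

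Among the named nuclear genes, the course of TXN was most like that of RPLP1, RPS10 and RPL23, which encode ribosomal proteins. Over the 10 stage means of log2(FPKM + 1), Pearson r was 0.84 for RPLP1, 0.73 for RPS10 and 0.69 for RPL23, then 0.62 for SPARC and 0.62 for EIF4A2, a translation initiation factor gene. These are descriptions over 10 points that rest on the same libraries and their totals, and the lowest values were -0.58 for GAPDH and -0.49 for the mitochondrial gene COX2. With the stage means taken out, r over the 30 libraries was 0.58 for RPLP1 and 0.42 for both RPS10 and FTH1. For the other named ribosomal protein genes it was 0.368 (RPS3A), 0.355 (RPL23) and 0.183 (RPL6). The lowest values among the named genes were of similar size, at -0.555 for APLP2, -0.523 for the mitochondrial gene ATP6 and -0.503 for ZP3. The likeness was not the same in every stage. In LYF, TXN had 1285, 1421 and 1167 FPKM while the mean of 5 ribosomal protein genes was 302.4, 529 and 1387 FPKM. In POF, TXN had 823.1, 1270 and 405.2 FPKM while that mean was 1204, 1153 and 549.9 FPKM, so replicate 3 was the lowest for both.

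**Figure D4:**
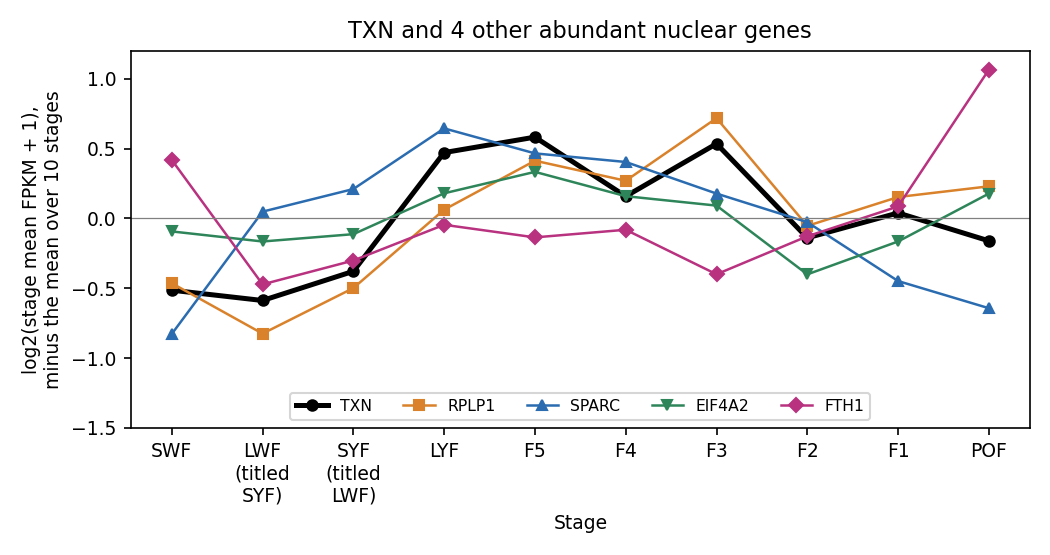
Stage means of TXN and 4 other abundant nuclear genes (y axis, log2(FPKM + 1) minus each gene's mean over 10 stages) by stage (x axis). TXN and RPLP1 (r of 0.84) are both low in SWF, LWF and SYF and high in F5 and F3, and SPARC falls towards POF. FTH1 has its highest mean in POF, which rests on replicate 1 (4647 FPKM).

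Over the 6464 other genes with a mean of at least 10 FPKM, the genes most like TXN carry no symbol in the files. ENSGALG00000016993 had an r of 0.94 over the 10 stage means, with 60.21 FPKM in F5 and 32.29 FPKM in SWF. ENSGALG00000028683 had an r of 0.93, with 249.2 FPKM in F5 and 109.8 FPKM in SWF. At the other end, ENSGALG00000038017 had an r of -0.97, with 12.09 FPKM in F5 and 26.38 FPKM in SWF, and ENSGALG00000032029 had an r of -0.97, with 10.04 FPKM in F5 and 21.13 FPKM in SWF. An r above 0.9 was found for only 7 of the 6464 genes and below -0.9 for only 36. The median over these genes was -0.24 (quartiles -0.52 and 0.17), so a negative r was more common than a positive one. With r taken over the 30 libraries instead, 2 of the 5 most similar genes were again among the top 5.

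TXN lay near the middle of all genes in how much it varied within stages. Its SD within stages was 0.39 on the log2 scale, against a median of 0.36 for the 6465 genes averaging 10 FPKM or more, of which 44.5% had a larger one. Its highest stage mean was 2.25 times its lowest, against a median of 2.78, and 67.9% of genes had a larger ratio. Stage accounted for 64.6% of its variance, a share not corrected for the number of stages. Among the 19 named nuclear genes this share ran from 26.8% for HSP90AA1 to 86.7% for ZP3. Among these genes TXN came 15th by the ratio of highest to lowest stage, where ZP3, with a ratio of 63, came first.

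The study's sequencing summary puts 6 libraries above the rest in Q30, the share of bases with a low error rate, and they came from 5 stages. The group was set here by a Q30 above 93 and not by a label, so whether it is a sequencing batch is not known. These 6 libraries also had the highest relative depths of the series, from 1.25 to 1.54. TXN had 874.1 FPKM in the 1 such library of F4, 1327 FPKM in that of F3, 792 FPKM in that of F2, 912.1 and 1018 FPKM in those of F1, and 405.2 FPKM in that of POF. They held the lowest TXN value of F4 and of POF, the middle value of F3 and F2, and the lowest and the highest of F1. With a term for this group, preovulatory minus prehierarchical was 0.62 (limma adjusted p = 0.00534) and was called. No library of SWF, LWF, SYF, LYF or F5 belongs to it, so the comparisons among those stages do not involve it.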

How the data were processed

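Cleaned reads without rRNA were aligned by the authors to GRCg6a using HISAT2 2.1.0, and StringTie 1.3.3 gave the deposited FPKM of each gene per library. Their differential test, on read counts, was not run here. FPKM holds no count of reads, so no counting interval is given, and a TXN level depends on the total of its library.

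The filter kept the 15197 of 23910 genes that passed an FPKM of 0.5 in 2 or more libraries of some stage, and 2819 genes were at 0 in every library. Tests used limma 3.58.1 in R 4.3.3 with the intensity trend on, after a log2(FPKM + 1) transform (pseudocount 1). A pair of stages was fitted on its own 6 libraries, and the trend on the 15 preovulatory libraries. Phases were compared in a fit of all 30 libraries with a coefficient per stage. The spread in a phase contrast therefore came from all 10 stages, also those outside the 2 phases compared. Benjamini-Hochberg adjustment ran over all genes kept. The code was tested on simulated data. Exact permutation tests (two-sided) served for single values. Figures were drawn with matplotlib 3.10.9.

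TXN, the genes and the lists were chosen with earlier results of these data known. The genes named were TXN, the members of the lists that could be matched by symbol, and the 5 genes with the highest and the 3 with the lowest Pearson r with TXN, of which at most 2 identifiers of each are printed. GAPDH, ACTB, ZP3, RPLP1 and the other genes of the study's table named here fall outside this rule and were chosen after their values were seen. Symbols come from the study's table, which names 36 identifiers, 32 with a symbol. The RefSeq table for GRCg7b holds 25635 genes and 0 Ensembl identifiers, so no further symbol could be matched, and no sequence is printed. In it 1 lncRNA gene overlaps TXN. The libraries are strand-specific, but the strand setting of the quantification is not given in the sources used here, so shared reads were not tested. The sources do not say which hens gave which libraries, so p-values measure only the spread between these libraries. Alternatives were 3 other scalings, another pseudocount, no filter, limma without the trend and a term for the libraries with Q30 above 93. Others were a replicate block, all 30 libraries in 1 fit, other fold rules, and leaving out each library.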

Additional observations from a re-analysis of the deposited data

How the results depend on the processing

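Of 82 tested values under other settings, 70 kept direction and side of the threshold, 2 reversed, 4 were weaker and 6 stronger. Of 123 tested values without 1 library, 99 kept both, 2 reversed, 19 were weaker and 3 stronger. The 19 weaker ones were 4 of 6 for LYF minus SWF and 15 of 24 for the course. No other result in either set was called in its main fit, so no other could become weaker. The other called pairs are in neither set. Under quantile normalization of the libraries of each fit, F1 minus SWF was -0.0174 and POF minus SWF was -0.14, both reversed, LYF minus SWF was 0.36 (adjusted p = 0.347), the R-squared of the course was 0.236 (adjusted p = 0.149) and 0 of 45 pairs were called by limma, with an unadjusted p under 0.05 in 4. Under the same normalization, preovulatory minus prehierarchical fell to 0.13 (limma adjusted p = 0.472) and no longer passed on p. That value is among the 70, because its main fit was not called either. With the upper quartile, F1 minus SWF was 1.28, preovulatory minus prehierarchical 0.82 and POF minus preovulatory -0.76, all called, and 9 pairs were called. Without mitochondrial genes and ZP3 in the total, F1 minus SWF was 0.61 and was called. LYF minus SWF stayed 0.98 without the filter (adjusted p = 0.0564) and with the replicate block (adjusted p = 0.0597), and was then not called. The term for higher Q30 gave 0.62 for preovulatory minus prehierarchical and 0.53 for F1 minus SWF (limma adjusted p = 0.0721). It could not be fitted for LYF minus SWF or for LYF against LWF and SYF, and 35 of the 45 pairs had it. With all 30 libraries in 1 fit, LYF minus LWF and SYF was 1 (adjusted p = 0.0273), and was called, and 8 pairs were called, 1 of them lower in the later stage (POF against F5). With an absolute log2 fold over 1.5, 0 pairs were called, of 15 with an unadjusted p under 0.05. Without the filter 4 pairs were called. The cause of these changes was not tested. The share of all genes called was not computed under these other settings, so the counts of pairs called have no baseline there.

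Without each library in turn, the values ran from 0.50 to 0.60 for F1 minus SWF (called without SWF replicate 2, adjusted p = 0.0493, and with an adjusted p of up to 0.0724 otherwise), from -0.73 to 0.10 for POF minus F1, from -0.17 to 0.65 for POF minus SWF, from 0.91 to 1.05 for LYF minus SWF, from -0.59 to -0.48 for F1 minus F5, from 0.43 to 0.56 for preovulatory minus prehierarchical, from -0.91 to -0.0842 for POF minus preovulatory, from -0.16 to -0.12 per stage for the trend, from 0.87 to 1.13 for LYF minus LWF and SYF, from 0.224 to 0.487 for the R-squared of the course, and from 4 to 7 for the number of pairs called.

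The replicate numbers gave no pairing over the stages. The correlation of deviations of libraries with the same number ran from -0.4 to 0.47 over the 45 pairs, and was over 0.1 for all 3 numbers in 1 pair (F2 and F4). In 9 pairs every library correlated best with its own number, LYF and SWF among them (0.074, 0.16 and 0.09). How many pairs would do so without any pairing was not computed, so no pairing is read from this. The replicate block left 2 pairs called, F5 and F3 against SWF. Of the 5 genes most like TXN, 2 remained with r over 30 libraries.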
